A study of Caenorhabditis elegans with 6 samples.

Results

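The genes described here were 8 Caenorhabditis elegans genes that move or sense the transmitter glutamate: the vesicular glutamate transporter gene eat-4, the plasma membrane glutamate transporter genes glt-1, glt-3, glt-4 and glt-5, and the metabotropic glutamate receptor genes mgl-1, mgl-2 and mgl-3. They were chosen by gene symbol, and all 8 were found among the 41862 features of the deposited table. RNA was sequenced from immunoprecipitated neuronal nuclei of L1 larvae, the stage that hatches from the egg, in 3 mutant and 3 control libraries. The mutant strain, OH17055, carries null alleles, per its label, of 6 CUT homeobox genes (ceh-44, ceh-48 and ceh-38, with ceh-39, ceh-21 and ceh-41) and also UPN INTACT. The control strain, OH16748, is labelled wildtype and carries UPN INTACT as the transgene otIs790, so both groups hold the nuclear tag. INTACT is a method in which nuclei of chosen cells carry a tag by which they are pulled down. Animals of both groups were synchronised at L1 after growth on large plates, so each library pools many larvae. The labels do not say whether replicates came from separate cultures, so p-values measure the spread between these libraries, which may be technical.

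Glutamate is a major excitatory transmitter of the worm, and it also inhibits cells that carry glutamate-gated chloride channels. EAT-4 loads it into synaptic vesicles, and eat-4 expression is the standard mark of a glutamatergic neuron. GLT proteins sit in the plasma membrane and clear released glutamate, and several of them act in cells that are not neurons. MGL proteins are G protein-coupled receptors that respond to glutamate more slowly than the channels do.

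Recovered depth was 15500882 to 20844986 reads in mutant libraries and 18768796 to 20352179 in control libraries. A floor of 3 reads was worth 2.44 to 3.79 normalized counts in mutant and 2.91 to 3.27 in control libraries, far below the level of each of the 8 genes, and covers counting error only. Of the targeted genes, 5 were lower in each mutant library than in any control library, while ceh-44 was higher in each, which runs against its null label if that is read as loss of RNA. The falls were unequal. Mean normalized counts in mutants and controls were 17.1 and 939 for ceh-21 and 17.2 and 834 for ceh-39. They were 58.1 and 171 for ceh-41, 586 and 1326 for ceh-48, and 2155 and 3728 for ceh-38. All 30 pan-neuronal markers were detected in every library, with summed normalized counts of 418534 to 766386 in mutants and 846348 to 1063677 in controls. Markers of other tissues were detected as well, among them 10 body wall muscle genes (227342 to 269747 in mutants, 196544 to 234915 in controls), 7 pharynx genes (46527 to 59088 in mutants, 23481 to 36669 in controls) and 5 germline genes (543.5 to 803.8 in mutants, 316.5 to 394.2 in controls). The libraries thus held RNA of genes that mark other tissues, and the pan-neuronal, pharynx and germline sums did not overlap between groups. Mutant replicate 2 had the lowest correlations with the control libraries across genes (Pearson's r of log2 values 0.9001 to 0.907, which describe libraries only).

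The comparison between groups asked whether loss of the CUT genes altered the RNA of these glutamate genes. None of the 8 genes passed the threshold, an adjusted p under 0.05 over all genes in limma, a linear model on log2(normalized count + 1). Over all 17900 genes tested, 18.1% passed it, 10.5% lower and 7.56% higher in mutants. The 2 receptor genes mgl-2 and mgl-3 had the largest differences of the 8, at about 0.7 of the control level, and both passed as lower once same-numbered libraries were treated as pairs (without mutant replicate 2 or 3 they did not). eat-4 was lower in each pair too and missed the threshold in both fits. The 4 plasma membrane transporters missed it in both fits, with differences on either side of 0.

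Limma differences, mutant minus control, ran from −0.51 (mgl-3) to 0.26 (glt-5), with a median of −0.24 beside −0.02 over all genes tested. Limma Benjamini-Hochberg adjusted p ranged from 0.1503 to 0.967, and none of the 8 had an unadjusted p under 0.05, against 34.8% of all genes. With edgeR and DESeq2 on recovered reads none of the 8 passed either, where 18.5% and 23.6% of genes did. For every one of the 8 the ranges of the groups overlapped, whereas they did not for 40.0% of genes. Scaling moved the balance of calls over all genes, from 1353 higher and 1886 lower as deposited to 2118 higher and 1357 lower with equal library totals.

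**Figure D1:**
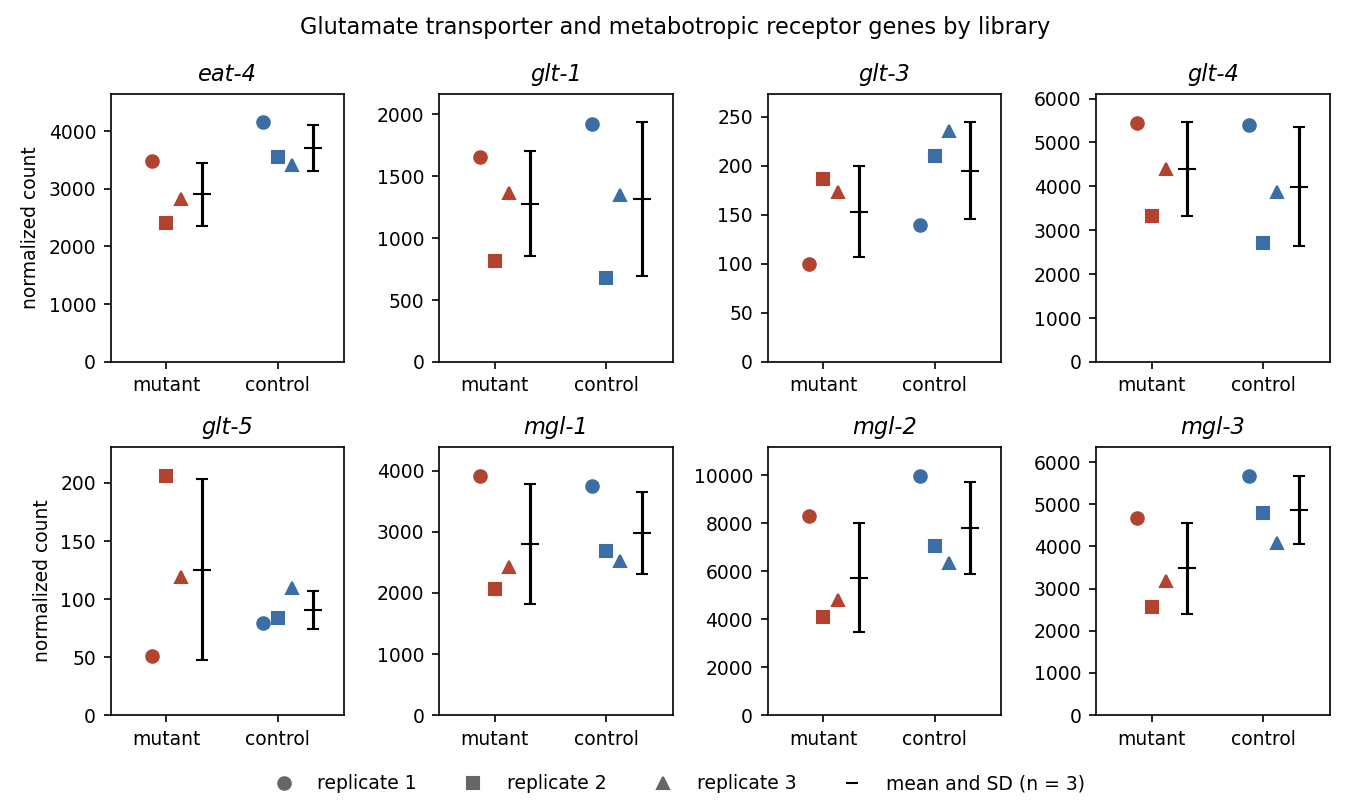
Normalized counts of the 8 genes in each mutant and control library (points, shaped by replicate number), with the mean and SD of each group (bars, n = 3). The replicate 1 libraries are the highest of their group for eat-4, glt-1, glt-4, mgl-1, mgl-2 and mgl-3 and the lowest for glt-3 and glt-5, and every panel shows overlapping groups.

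The vesicular transporter was taken first. Normalized counts of eat-4 in replicates 1, 2 and 3 were 3489, 2404 and 2819 in mutants, against 4152, 3550.3 and 3413 in controls. Only mutant replicate 1 reached into the control range, and it did so just above the lowest control. The means were 2904 ± 547 in mutants and 3705 ± 393 in controls (SD, n = 3 each). The limma difference was −0.36 (SE 0.18, 95% interval −0.77 to 0.05), with a Benjamini-Hochberg adjusted p of 0.188. The interval holds both no change and a fall to 0.586 of the control level. In bulk libraries like these, fewer cells of a type and less RNA per cell cannot be told apart. The summed pan-neuronal markers given above were also lower in mutants, with 26 of the 30 genes lower and 4 higher. Sums of 4 markers of cholinergic neurons overlapped between groups (10799 to 19269 in mutants, 13299 to 19669 in controls). So did those of 5 markers of GABA neurons (4375 to 9496 in mutants, 5648 to 10157 in controls). Of these 5, 4 were lower, 1 was higher and 0 passed the limma threshold. Single GABA markers were uneven: unc-30 was lower in every mutant library than in any control, where 40.0% of all genes did not overlap. It differed by −0.74, with a limma Benjamini-Hochberg adjusted p of 0.0517. With same-numbered libraries paired this was 0.0246, in a fit that called 15.2% of all genes lower. The part of these neuronal markers in the eat-4 values was not tested. Without mutant replicate 2 the eat-4 difference was −0.24. Centred on the mean of the pan-neuronal list, eat-4 differed by 0.18 (95% interval −0.20 to 0.56, limma Benjamini-Hochberg adjusted p 0.459). That list was itself uneven, with limma differences from −1.28 to 0.26. Of its 30 genes, 8 passed the limma threshold as lower, beside 10.5% of all genes. Values centred on it, here and below, are thus relative to a list that differed between groups.

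Among the plasma membrane transporters, glt-4, known from neurons, was the most abundant per exon length. Its normalized counts were 5453, 3314 and 4402 in mutants and 5402, 2711 and 3871 in controls, so both groups spanned nearly the same range. The means were 4390 ± 1069 in mutants and 3995 ± 1350.1 in controls (SD, n = 3 each), and the limma difference was 0.16 (SE 0.27, 95% interval −0.44 to 0.76, Benjamini-Hochberg adjusted p 0.697). Without mutant replicate 1 the glt-4 difference was −0.01, and without control replicate 2 it was −0.09. Relative to the pan-neuronal list, glt-4 was the one gene of the 8 past the threshold, higher by 0.71 (95% interval 0.26 to 1.15, limma Benjamini-Hochberg adjusted p 0.0375). In that scaling the median of all genes moved to 0.52, 15.9% of all genes were called higher and 2.26% lower, so glt-4 stood 0.19 above the median gene.

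The glt-1 gene, known from muscle and epidermis, had 1656, 817 and 1365 normalized counts in mutants and 1921, 677 and 1345.5 in controls. The spread among replicates exceeded the gap between group means, which were 1279 ± 426 in mutants and 1314 ± 623 in controls (SD, n = 3 each). The limma difference was 0.03 (SE 0.37, 95% interval −0.80 to 0.85, Benjamini-Hochberg adjusted p 0.967). The interval spans a fold of 0.574 to 1.81. Leaving out single libraries turned the sign, to −0.19 without mutant replicate 1, −0.05 without mutant replicate 3 and −0.39 without control replicate 2. The body wall muscle sums overlapped between groups, as did those of 9 epidermis markers (1859.5 to 3880.4 in mutants, 1478 to 2584 in controls), but single markers stood apart. Of the 10 muscle genes, 7 were lower and 3 higher, at a list median of −0.08. The 1 past the limma threshold was unc-89, which codes for a giant protein of the sarcomere, beside 7.56% of all genes called higher. unc-89 differed by 0.96 (limma Benjamini-Hochberg adjusted p 0.0211), with every mutant library above every control. Of the epidermis markers 8 were tested, 6 were higher and 0 passed the threshold, at a list median of 0.93. With the replicate block 2 were called higher, dpy-10 and sqt-3 (limma Benjamini-Hochberg adjusted p 0.0383 and 0.0333), beside 11.1% of all genes. The collagen genes dpy-7 and dpy-10 did not overlap between groups, as for 40.0% of genes, at low control means of 8.21 and 7.50. Among epidermis markers with higher counts, sqt-3 differed by 1.19, elt-3 by −0.27, nhr-25 by −0.24 and lin-26 by 0.06. The part of muscle and epidermis RNA in the glt-1 values was not tested.

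The remaining pair of transporters were expressed at low levels. glt-3, known from the excretory canal cell and pharynx, had 99.9, 186 and 173 normalized counts in mutants and 139, 209.6 and 234.9 in controls. Each mutant library was below the control of the same number, yet the groups overlapped, and the limma difference was −0.36 (SE 0.30, 95% interval −1.03 to 0.30, Benjamini-Hochberg adjusted p 0.414). The size of the glt-3 difference depended on single libraries, at −0.08 without mutant replicate 1 and −0.58 without control replicate 1. The sums of 6 excretory canal markers were 4238 to 4633 in mutants and 3799 to 4822 in controls, overlapping as well. glt-5, known from the pharynx, had 50.6, 206 and 119.02 normalized counts in mutants and 79.5, 83.4 and 109.7 in controls, with the lowest and the highest of the 6 values both among the mutants. Its limma difference was 0.26 (SE 0.44, 95% interval −0.73 to 1.24, Benjamini-Hochberg adjusted p 0.709), and −0.21 without mutant replicate 2. Of the 7 pharynx markers, the myosin genes myo-1 and myo-2 and the troponin gene tnt-4 rose in mutants past the limma threshold (differences 0.68, 0.92 and 1.08). Over all genes, 7.56% were called higher. The other 4 missed it, tnc-2, tni-4, pha-4 and ceh-22 (0.72, 0.65, 0.10 and 0.08). In mutant replicates 1, 2 and 3 the sum of the 7 was 46527, 59088 and 52752, ordered as glt-5 was. In control replicates 1, 2 and 3 it was 36669, 23481 and 31694, ordered otherwise than glt-5. The part of pharynx RNA in the glt-5 and glt-3 values was not tested.

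Differences between the 3 metabotropic receptor genes were not tested. By sequence, MGL-2 resembles the group I receptors of mammals, MGL-1 group II and MGL-3 group III. Normalized counts of mgl-1 were 3921, 2061 and 2418 in mutants and 3744, 2678 and 2514 in controls, with a mutant library at the top of all 6. The means were 2800 ± 987 in mutants and 2979 ± 668 in controls (SD, n = 3 each), and the limma difference was −0.12 (SE 0.25, 95% interval −0.69 to 0.45, Benjamini-Hochberg adjusted p 0.761). The mgl-1 difference was 0.07 without mutant replicate 2, 0.05 without control replicate 1 and 0.05 with equal library totals.

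Normalized counts of mgl-2 were 8319, 4095 and 4790.4 in mutants, against 9993, 7049.6 and 6362 in controls. Mutant replicates 2 and 3 lay below every control, and mutant replicate 1 lay inside the control range. The means were 5735 ± 2265 in mutants and 7802 ± 1929 in controls (SD, n = 3 each), a fold of 0.714 on the fitted scale. The limma difference was −0.49 (SE 0.28, 95% interval −1.10 to 0.13, Benjamini-Hochberg adjusted p 0.240). In the annotation of assembly WBcel235, mgl-2 shares 554 exon bases on the same strand with the protein-coding gene maf-1, so reads there cannot be assigned to one gene with certainty. maf-1 had 3037, 1195 and 1708 normalized counts in mutants and 3499.9, 2658 and 2513 in controls, in the same order within each group as mgl-2. Its limma difference was −0.64 (SE 0.30, Benjamini-Hochberg adjusted p 0.164, and 0.0337 with the replicate block).

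Normalized counts of mgl-3 were 4684, 2568 and 3183 in mutants, against 5683, 4806 and 4075 in controls, again with only mutant replicate 1 inside the control range. The means were 3479 ± 1088 in mutants and 4855 ± 805 in controls (SD, n = 3 each), a fold of 0.701 on the fitted scale. The limma difference was −0.51 (SE 0.23, 95% interval −1.04 to 0.01), with a Benjamini-Hochberg adjusted p of 0.1503, the smallest of the 8 genes. Without mutant replicate 1, both receptors passed the threshold as lower, mgl-2 with a difference of −0.79 (limma Benjamini-Hochberg adjusted p 0.0301) and mgl-3 with −0.75 (limma Benjamini-Hochberg adjusted p 0.0252). In that fit 14.1% of all genes were called lower. Without mutant replicate 2, whose correlations with the controls were lowest, the differences were −0.28 for mgl-2 and −0.32 for mgl-3. Relative to the pan-neuronal list, mgl-2 differed by 0.06 (limma Benjamini-Hochberg adjusted p 0.836) and mgl-3 by 0.03 (0.914).

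**Figure D2:**
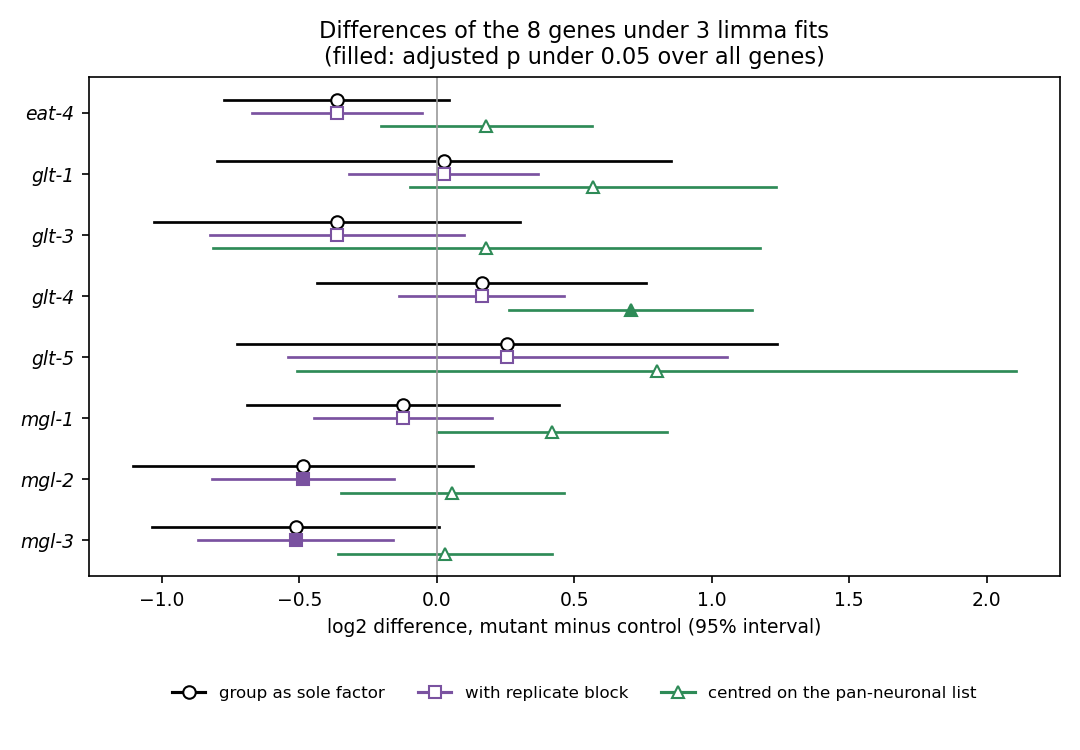
Log2 differences (mutant minus control, horizontal axis) of the 8 genes with 95% intervals in 3 limma fits: group as the sole factor, with replicate number as a block, and with libraries centred on the pan-neuronal list. Filled symbols passed an adjusted p of 0.05 over all genes: mgl-2 and mgl-3 with the block, and glt-4 when centred on the list.

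The libraries with the same replicate number resembled each other in these genes. For eat-4, glt-1, glt-4, mgl-1, mgl-2 and mgl-3, replicate 1 was the highest library in both groups, an arrangement shared by 18.5% of all genes tested. For glt-3 and glt-5 it was the lowest in both, as for 14.9% of genes. Within same-numbered pairs, eat-4, glt-3, mgl-2 and mgl-3 were lower in the mutant library of all 3 pairs, as were 30.8% of genes. The pair differences of mgl-3 were −0.28, −0.90 and −0.36, those of mgl-2 −0.26, −0.78 and −0.41, and those of eat-4 −0.25, −0.56 and −0.28 on the log2 scale. The replicate 2 pair held the largest of these differences for all 3 genes. glt-4 was higher in the mutant library of all 3 pairs, by 0.01, 0.29 and 0.19, as were 28.4% of genes, and glt-1, glt-5 and mgl-1 went both ways.

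With the replicate block in the limma fit, mgl-2 passed the threshold at an unchanged difference of −0.49 (SE 0.15, 95% interval −0.82 to −0.16, Benjamini-Hochberg adjusted p 0.0386). mgl-3 passed as well, at −0.51 (SE 0.16, 95% interval −0.87 to −0.16, limma Benjamini-Hochberg adjusted p 0.0414). eat-4 did not, at −0.36 (SE 0.14, 95% interval −0.67 to −0.06, limma Benjamini-Hochberg adjusted p 0.0781). The block call rate was 15.2% lower and 11.1% higher over all genes, so 2 lower genes of 8 is not far from that background. Leaving out further libraries, a check added after seeing the data, changed these calls. Without mutant replicate 2 in the blocked fit, mgl-2 differed by −0.34 (limma Benjamini-Hochberg adjusted p 0.106) and mgl-3 by −0.32 (0.123). Without mutant replicate 3 mgl-2 differed by −0.52 (limma Benjamini-Hochberg adjusted p 0.15) and mgl-3 by −0.59 (0.0959). Without mutant replicate 1 both stayed past the threshold, mgl-2 at −0.60 (limma Benjamini-Hochberg adjusted p 0.0243) and mgl-3 at −0.63 (0.02002). The block also narrowed the interval of glt-1 to −0.32 to 0.37 and that of glt-4 to −0.14 to 0.46.

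**Figure D3:**
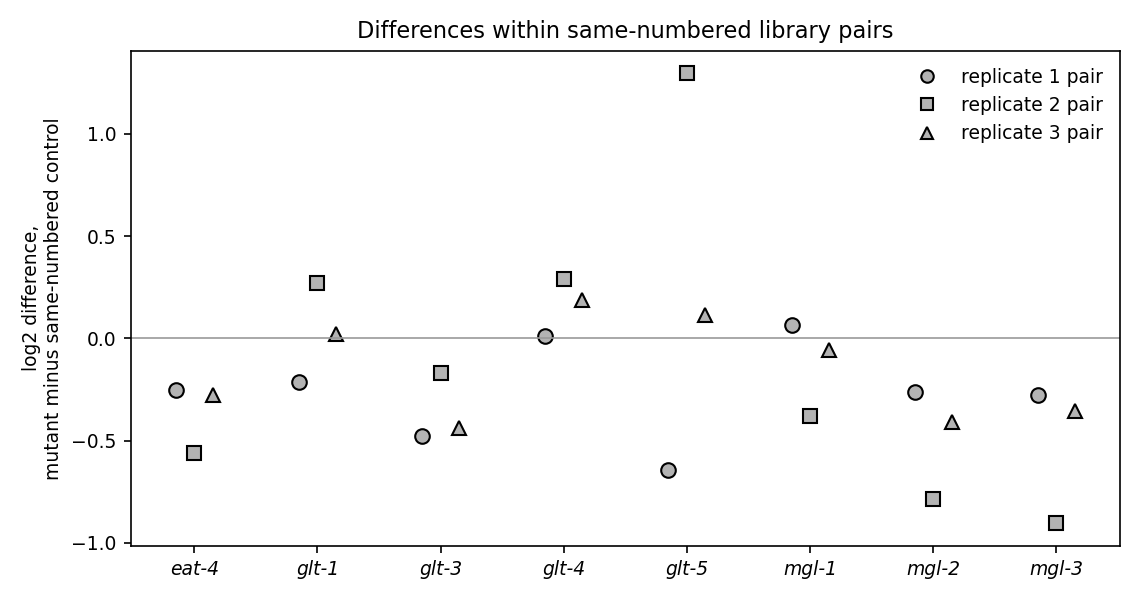
Log2 difference of each mutant library from the control library of the same replicate number (vertical axis) for the 8 genes, 1 point per pair. All 3 points lie below 0 for eat-4, glt-3, mgl-2 and mgl-3, and all 3 lie above 0 for glt-4.

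Levels of different genes were compared as normalized counts per kilobase of merged exons, with exon lengths from the Ensembl annotation of WBcel235. In controls the order was mgl-2 (2100 ± 519), eat-4 (1671 ± 177), mgl-3 (1427 ± 237), glt-4 (1252 ± 423), mgl-1 (929 ± 208), glt-1 (707 ± 335), glt-3 (103.8 ± 26.4) and glt-5 (50.8 ± 9.18, SD, n = 3 throughout). In mutants mgl-2 (1543 ± 610) was followed by glt-4 (1376 ± 335), eat-4 (1309 ± 247) and mgl-3 (1022 ± 320), and the last 4 genes kept their places (SD, n = 3). The ranges of neighbours in the control order overlapped among the first 6 in both groups. Within every single library, though, mgl-2 lay above eat-4, eat-4 above mgl-3, glt-4 above mgl-1, and mgl-1 above glt-1. The order of mgl-3 and glt-4 differed between libraries. In every library glt-1 lay above glt-3, with separate ranges. glt-3 and glt-5 were separate in controls and overlapped in mutants. Nuclear RNA holds introns, and whether intronic reads were counted is not stated, so these values order the genes only as the table records them.

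Across the 6 libraries the genes fell into patterns that describe these libraries and carry no test, since the points share depth and scaling. Log2 values of eat-4, mgl-2 and mgl-3 had pairwise Pearson's r of 0.965 to 0.990, and those of glt-1 and glt-4 had an r of 0.966. glt-5 ran against the receptors, with r of −0.904, −0.852 and −0.839 to mgl-1, mgl-2 and mgl-3. By the same measure over 12077 genes with a mean of at least 50, the 2 genes most like eat-4 were tmc-1 (0.9995) and ceh-16 (0.999), those most like mgl-2 were dop-5 and npr-35 (both 0.997), and those most like mgl-3 were ugt-65 and syd-1 (both 0.997). The nearest to mgl-1 were nca-2 (0.995) and W08G11.6 (0.994), to glt-1 pisy-1 (0.992) and snf-1 (0.991), and to glt-4 pept-3 (0.996) and linc-164 (0.988). The nearest to glt-3 were ctns-1 (0.982) and R11G10.2 (0.973), and to glt-5 bcas-2 (0.986) and C07H4.1 (0.985). Such values are common over 6 libraries: 438 genes had an r over 0.95 with eat-4, and 16 with glt-3.

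Other genes of glutamate signalling and metabolism were examined in 6 lists with 45 genes in all, which do not include the 8. Of these, 4 fell and 1 rose in mutants past the limma threshold, beside the 18.1% of all genes that did. The falls were in the glutamate receptor channel subunit gene glr-6 and the homeodomain factor genes ceh-36, ttx-1 and unc-86, and the rise was in the glutaminase gene glna-1. With the replicate block 9 were lower and 2 higher, beside 26.3% of all genes. Centred on the pan-neuronal list 0 were lower and 7 higher, beside 2.26% and 15.9% of all genes. Genes called with the block and not without it in limma are named for that reason, after their values were seen. Among the ionotropic receptor subunits, nmr-1 differed by 0.77, with a limma Benjamini-Hochberg adjusted p of 0.0685, 0.00709 with the block and 0.0307 with DESeq2. Its mutant library was higher in all 3 same-numbered pairs, by 0.66, 0.76 and 0.87. The other subunit genes were nmr-2 at −0.57 (limma Benjamini-Hochberg adjusted p 0.205, 0.0398 with the block) and glr-4 at −0.41 (0.293 and 0.0463). The total was 9 without mutant replicate 1, 8 without mutant replicate 2 and 3 without control replicate 2.

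Among 10 subunit genes of glutamate-gated cation channels, only glr-6 passed the threshold, beside 10.5% of all genes called lower. The other 9 did not, and the list median was 0.09. Normalized counts of glr-6 were 785, 621 and 690.5 in mutants, against 1740.2, 1451 and 1422 in controls, with a clear gap between groups. Its limma difference was −1.14 (SE 0.17, Benjamini-Hochberg adjusted p 0.00246), and −0.59 relative to the pan-neuronal list (limma Benjamini-Hochberg adjusted p 0.0718). In that scaling 4 of the 10, glr-1, glr-3, glr-5 and nmr-1, were called higher, beside 15.9% of all genes. None of the 6 genes of glutamate-gated chloride channels passed (list median −0.14), and the smallest p were those of glc-2 (difference −0.44, limma Benjamini-Hochberg adjusted p 0.210) and glc-3 (−0.40, 0.228). None of the 5 genes of receptor auxiliary proteins passed (list median −0.42), with sol-2 at −0.45 (limma Benjamini-Hochberg adjusted p 0.142) and sol-1 at −0.45 (0.248, and 0.0488 with the block). Both encode CUB-domain partners of AMPA-type receptors. None of the 4 other transporter genes passed (list median 0.16), with glt-7 at −0.61 (limma Benjamini-Hochberg adjusted p 0.285) and the vesicular transporter relative vglu-3 at 0.41 (0.657).

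Of 12 genes for enzymes of glutamate and glutamine, 1 rose, beside 7.56% of all genes, and 11 did not pass (list median 0.22). Normalized counts of glna-1, whose product makes glutamate from glutamine, were 276, 251 and 229 in mutants, against 105, 94.9 and 98.0 in controls, so every mutant library was more than double any control. The limma difference was 1.33 (SE 0.20, Benjamini-Hochberg adjusted p 0.00256). The aminotransferase gene got-1.2 differed by −0.59 (limma Benjamini-Hochberg adjusted p 0.0938, 0.0213 with the block). Of 8 transcription factor genes of neurons that use glutamate, 3 fell past the threshold, beside 10.5% of all genes, and 5 did not pass (list median −0.64). All 8 had differences below 0, and 5 were lower in every mutant library than in any control. Over all genes, 40.0% did not overlap between groups in either direction. ceh-36, an OTX-type gene of the AWC and ASE sensory neurons, had 171, 81.3 and 146 normalized counts in mutants and 326, 349 and 254 in controls (limma difference −1.27, SE 0.29, Benjamini-Hochberg adjusted p 0.0163). Leaving out control replicate 1 gave ceh-36 a limma Benjamini-Hochberg adjusted p of 0.0624, and leaving out control replicate 2 gave 0.0712. ttx-1, an OTX-type gene of the AFD thermosensory neurons, had 264, 181 and 219 in mutants and 452, 404 and 429 in controls (limma difference −0.96, SE 0.20, Benjamini-Hochberg adjusted p 0.0105). unc-86, a POU-type gene, had 1058, 1074 and 1046 in mutants and 1670.5, 1405 and 1597 in controls (limma difference −0.55, SE 0.15, Benjamini-Hochberg adjusted p 0.0334). The unc-86 call was lost without mutant replicate 3 and without any one control, with limma Benjamini-Hochberg adjusted p of 0.0633 to 0.125. It was lost as well with quantile normalization (0.0546), no filter (0.0552), no variance trend (0.0862) and equal library totals (0.105). The unc-86 difference was −0.62 to −0.50 without single libraries. ceh-14, a LIM-type gene, was lower in every mutant library than in any control and differed by −0.67 (limma Benjamini-Hochberg adjusted p 0.0566, 0.0136 with the block and 0.0412 with DESeq2). Relative to the pan-neuronal list, ceh-36, ttx-1 and unc-86 differed by −0.73, −0.42 and −0.01, with none past the threshold.

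**Figure D4:**
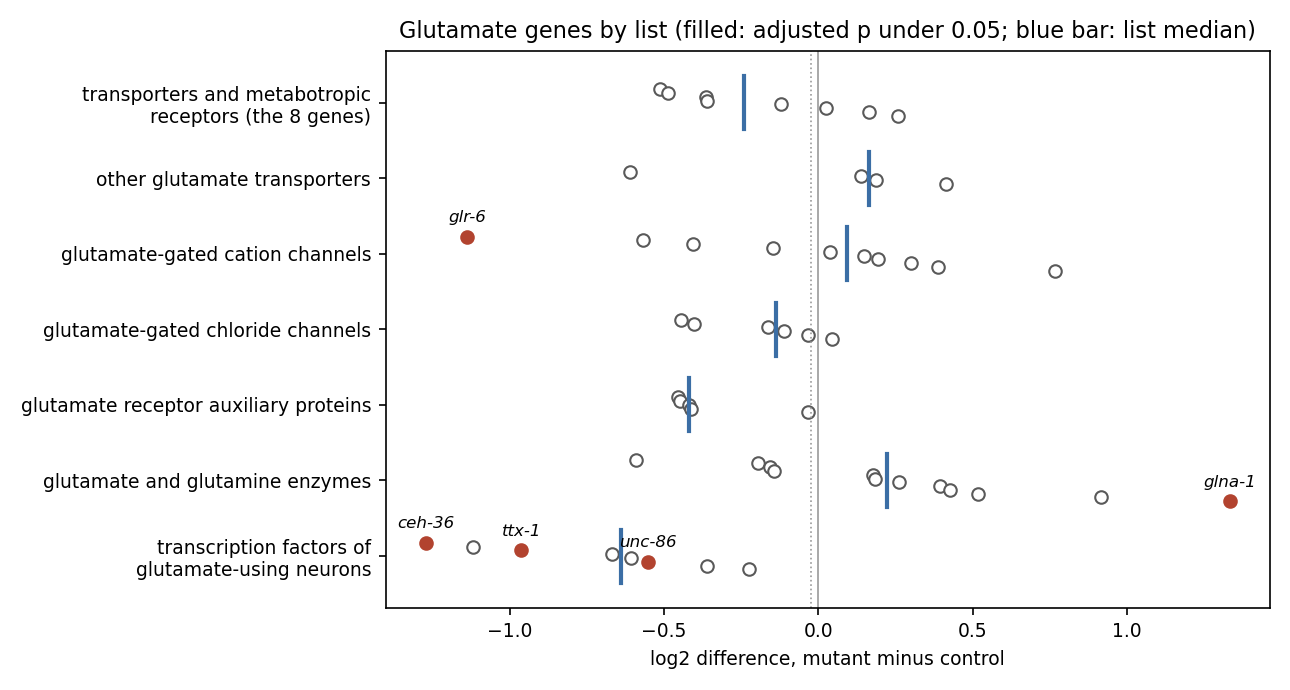
Log2 differences (mutant minus control, horizontal axis) of the 8 genes and of 45 other glutamate genes in 6 lists, 1 point per gene, with the list median (blue bar) and the median of all genes tested (dotted line). Filled points passed an adjusted p of 0.05: glr-6, ceh-36, ttx-1 and unc-86 lower and glna-1 higher, and none of the 8 transporter and metabotropic receptor genes.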

How the data were processed

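The authors deposited a table of DESeq2-normalized counts, a depth-normalized signal per gene and library, per the file's name; the submitters' processing notes also name STAR and featureCounts. Genome build, annotation, use of strand and treatment of multi-mapping reads are not given in the sources used here, so overlapping genes and close relatives are uncertain, and no coordinates are given. Each library's values were whole multiples of 1 step, which gave back whole reads for 100% of values (within 0.01 reads).

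Limma 3.58.1 (R 4.3.3) was fitted to log2(value + 1) with group as the factor and a trended variance prior, with Benjamini-Hochberg adjustment across 17900 genes with a mean of at least 10. Such differences understate changes of low genes. All 8 genes passed that filter. EdgeR 4.0.16 and DESeq2 1.42.0 were run on recovered reads as alternatives. After subtraction of group means, libraries sharing a number correlated across genes at 0.25, 0.20 and 0.15 for replicates 1, 2 and 3, so the numbers, taken from the sample titles, were treated as pairing the libraries in the alternative with a replicate block. Named genes were the 8, the targeted genes, the genes of the 6 wider lists past the threshold or, in lists with none, the 2 with the smallest p, and the 2 nearest patterns to each of the 8. The members and lists were chosen with earlier results of these data known.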

Additional observations from a re-analysis of the deposited data

How the results depend on the processing

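None of the 8 genes passed the threshold with quantile normalization, equal totals, median centring, pseudocounts of 0.5 or 5, no filter, a minimum mean of 50, edgeR, DESeq2 or no variance trend. With the replicate block 2 were lower, and leaving out single libraries gave 0 to 2 lower, the 2 being mgl-2 and mgl-3 without mutant replicate 1. In blocked fits that each also left out 1 mutant library, chosen after seeing the data, 2 were lower without mutant replicate 1 and 0 without mutant replicate 2 or 3. Centred on the pan-neuronal list 1 was higher, glt-4. The replicate block changed no call of the 8 other than mgl-2 and mgl-3. The median difference of the 8 genes was −0.066 with equal totals, where the median of all genes moved to 0.15, and 0.30 when centred on the pan-neuronal list. Signs turned in that centring for eat-4 (0.18), glt-3 (0.18), mgl-1 (0.42), mgl-2 (0.057) and mgl-3 (0.030), with equal totals for mgl-1 (0.054) and with DESeq2 for glt-1 (−0.012). Across fits that each left out 1 library, differences ran from −0.39 to 0.36 for glt-1, −0.58 to −0.082 for glt-3, −0.089 to 0.41 for glt-4, −0.21 to 0.79 for glt-5 and −0.39 to 0.070 for mgl-1. With the block and without mutant replicate 2, the differences of glt-1, glt-5 and mgl-1 were −0.097, −0.26 and 0.0050. The wider lists had 11 genes past the threshold with the block (6 to 11 when a mutant library was also left out) and 3 to 9 without single libraries, and all genes gave 1509 to 4118 calls without single libraries. What caused these shifts was not tested. With 3 libraries a group, the 95% intervals of the 8 genes were wide, from 0.82 (eat-4) to 1.96 (glt-5) on the log2 scale.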

Other observations

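The annotation of WBcel235 places 37 piRNA loci inside the span of mgl-3, 12 on its strand and 25 on the other. The table lists 10 and 24 of them. The 10 on the strand of mgl-3 summed to 144, 102 and 133 normalized counts in mutant replicates 1, 2 and 3 and to 161, 181 and 113 in control replicates 1, 2 and 3. The 24 on the opposite strand summed to 1.26, 52.8 and 4.22 in the mutants and to 3.27, 4.17 and 1.94 in the controls. Mutant replicate 2 thus had 9 opposite-strand loci above 0, where the other 5 libraries had 1 to 3. The same library was the highest for ZK512.2, which shares 79 exon bases with eat-4 on the opposite strand, at 904 normalized counts, beside 441 and 452 in the other mutants and 331 to 457 in controls. These loci were chosen after their values were seen, and their part in the values of eat-4 and mgl-3 was not tested.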
